A study of Rattus norvegicus with 10 samples.

Results

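The genes described here are NRF2, its classical target genes and the enzymes of glutathione synthesis in irradiated rat liver. They were chosen by name from a list of 9 genes: Nfe2l2, which encodes NRF2, and Gclm, Gclc, Slc7a11, Gsr, Nqo1, Hmox1, Txnrd1 and Srxn1. The accession printed for each array probe named 8 of the 9 genes through 10 probes, out of 40945 probes with a value on every array and 13426 genes with a named probe. No probe could be matched to Gsr (glutathione reductase), which is therefore not analysed here.

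Liver RNA of male Wistar rats had been labelled with Cy3 and hybridised to 4 × 44 K whole rat genome arrays, with 1 array per rat. The control group (n = 3) received no radiation, and the TBI group (n = 3) received total-body irradiation of 6.5 Gy, the dose given in the labels, from a 60Co source. The MASM + TBI group (n = 4) received the same irradiation after MASM, a derivative of the plant alkaloid matrine, given into the stomach at 30 mg/kg a day on the 3 preceding days. The study's text names another dose than the labels for this experiment. All livers were taken at 24 h, counted from the irradiation in the irradiated groups. No rats given MASM without irradiation are among these arrays, so the comparisons show MASM in irradiated rats alone.

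NRF2 is a transcription factor that KEAP1 holds in the cytoplasm and passes on for degradation. Oxidants and electrophiles modify KEAP1, NRF2 then accumulates in the nucleus, pairs with small MAF proteins and binds antioxidant response elements, whereas BACH1 competes for the same elements. Its targets encode the catalytic and modifier subunits of glutamate-cysteine ligase (Gclc and Gclm), which carries out the rate-limiting step of glutathione synthesis, and enzymes that reduce quinones, thioredoxin and oxidised peroxiredoxins. The liver is a major site of glutathione synthesis.

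The promoters of the genes were read for the core of the antioxidant response element, TGACNNNGC, on both strands. RefSeq promoters (GRCr8, 250 bases before to 50 bases after a start site) were found for 7 of the 9 genes, and Txnrd1 had 2, which made 8 promoters. The core occurred in 3 of these 8 promoters and in 12.1% of the 33469 promoters in the table. The AP-1-like motif TGANTCA, searched in the same way, occurred in 1 of the 8, that of Srxn1 with 2 matches, and in 7.33% of all promoters, and no match of the core overlapped it. The matching sequences are shown because Gclm and Nfe2l2 are the genes that passed the tests below, and Txnrd1 is the only other gene with a match. In each sequence the capitals mark the core, which is read on the complementary strand in Gclm and Txnrd1. The first is the whole stretch before the start site of Gclm, at chr2:213031885-213032134 on the plus strand, with the match at bases -172 to -164 from the start site. The Txnrd1 stretch lies at chr7:22755964-22755992 on the minus strand, with the match at bases -78 to -70. The Nfe2l2 stretch lies at chr3:81028950-81028971 on the minus strand, just after the start site, with the match at bases 39 to 47.
Gclm: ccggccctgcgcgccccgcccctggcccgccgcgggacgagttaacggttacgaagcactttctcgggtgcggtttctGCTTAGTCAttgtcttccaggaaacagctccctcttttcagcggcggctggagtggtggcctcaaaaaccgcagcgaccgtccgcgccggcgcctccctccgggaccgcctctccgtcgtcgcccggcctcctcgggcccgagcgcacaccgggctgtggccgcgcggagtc
Txnrd1: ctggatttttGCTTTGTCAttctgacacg
Nfe2l2: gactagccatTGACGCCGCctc
These matches describe the letters of the promoters and do not show binding. Sequence outside these promoters was not searched, so a gene without a match here may still have an element elsewhere.

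Levels are log2 intensities, quantile normalized between the 10 arrays, and a difference of 1 on this scale is 2-fold. The study's own test of single probes, called the methods' t-test, was run as an alternative, with a Benjamini-Hochberg adjustment that the study did not state. A gene was called changed when limma gave an adjusted p (Benjamini-Hochberg over all 40945 probes) under 0.05 and a fold change of at least 1.5. Between 56.2% and 60.2% of spots were well above background on the control and MASM + TBI arrays, and 64.1% to 70.1% on the TBI arrays. The 3 TBI rats shared a slide that held no other group, so slide and group cannot be told apart in any comparison with TBI rats. The control rats were on slide 1 together with MASM + TBI rat 3, and the other 3 MASM + TBI rats were on slide 3. The 6 hepatocyte markers were well above background on every array, with a summed log2 signal of 19.37 and 19.33 in TBI rats 1 and 2 and of 19.55 to 19.69 in the other 8 rats. None of the 6 was called in any comparison, with log2 differences between TBI and control from -0.52 (Ttr) to 1.53 (Tat). The summed signal of 5 markers of T and B lymphocytes was 7.86 to 8.06 in control rats, 4.88 to 6.17 in TBI rats and 4.89 to 5.70 in MASM + TBI rats. Of these 5 probes, 3 were well above background in each control rat, 1 to 2 in the TBI rats, 2 in MASM + TBI rat 1 and 0 in MASM + TBI rats 2, 3 and 4. In whole liver, fewer cells of a type and less RNA per cell cannot be told apart. Cdkn1a, a p53 target that marks irradiation, had a mean level of 8.37 ± 0.43 (SD, n = 3) in control rats against 13.73 ± 0.30 (SD, n = 3) in TBI rats and 13.17 ± 0.33 (SD, n = 4) in MASM + TBI rats.

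Among the 8 genes with a probe, Nfe2l2 rose and Gclm fell after TBI, Nfe2l2 alone rose in MASM + TBI rats against control, and Gclm alone was higher in MASM + TBI than in TBI rats. These were 1 gene higher and 1 lower of 8 for TBI against control, where 2.01% of all probes were called higher, 2.49% lower and 4.50% in either direction. For MASM + TBI against control the count was 1 higher and 0 lower of 8, against 0.926% of all probes called higher, 1.43% lower and 2.35% in all. For MASM + TBI against TBI it was 1 higher and 0 lower of 8, against 0.767% higher, 0.625% lower and 1.39% in all. At an unadjusted p under 0.05 with the 1.5-fold limit, the methods' t-test gave Gclm and Nfe2l2 for TBI against control, Gclc, Nqo1 and Nfe2l2 for MASM + TBI against control, and Gclm for MASM + TBI against TBI, where it gave 7.08%, 5.75% and 4.03% of all probes. At an unadjusted p under 0.05, limma gave 4, 4 and 3 of the 8 genes in these comparisons, where it gave 23.5%, 17.0% and 17.0% of all probes. The probes compared are not alike: 7 of the 8 genes, but 25274 of all 40945 probes, were well above background on all arrays of a group. The median log2 fold change of the 8 genes was 0.38 for TBI against control, 0.43 for MASM + TBI against control and 0.09 for MASM + TBI against TBI, beside -0.03, 0.00 and 0.04 over all probes. These medians include Slc7a11, whose spot was at background in every rat, and without it they were 0.45, 0.54 and 0.05. Scaling to the 75th percentile, in place of quantile normalization, moved the split over all probes from 821 higher and 1021 lower to 1609 and 5341 for TBI against control, and from 314 higher and 256 lower to 4238 and 899 for MASM + TBI against TBI, and the same genes of the 8 were called. The comparisons share groups, so their counts are not independent of each other.

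**Figure D1:**
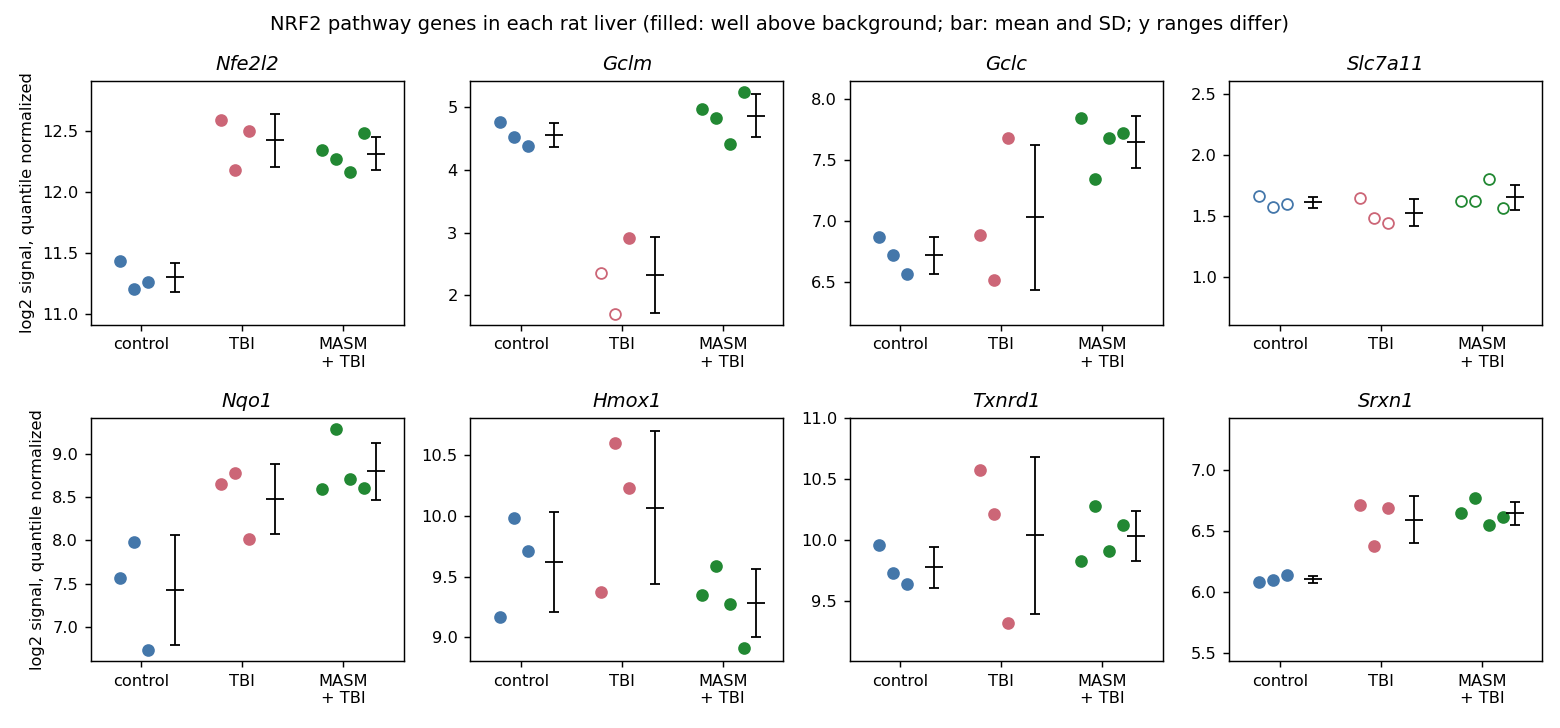
Log2 signal, quantile normalized, of the 8 genes with a probe in each rat (1 point per rat; filled points are well above background; bars are the mean and SD of the group; the y ranges differ between genes). Gclm has a mean of 2.32 in TBI rats against 4.55 and 4.87 in the control and MASM + TBI rats, whereas Nfe2l2 lies near 12 in both irradiated groups and near 11 in control rats.

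Nfe2l2, the gene of NRF2 itself, was higher in both irradiated groups, with or without MASM. Control rats 1 to 3 had a log2 signal of 11.43, 11.20 and 11.26. It was 12.59, 12.18 and 12.50 in TBI rats 1 to 3 and 12.34, 12.26, 12.16 and 12.48 in MASM + TBI rats 1 to 4. All 7 irradiated rats lay above all 3 control rats, and the irradiated groups overlapped. In TBI rats Nfe2l2 was higher than in control rats by 1.13 on the log2 scale, or 2.18-fold (SE 0.13, 95% CI 0.82 to 1.43, limma adjusted p = 0.0037). MASM + TBI rats stood 1.01 above control, or 2.02-fold (SE 0.12, 95% CI 0.73 to 1.30, limma adjusted p = 0.0053). The difference between the irradiated groups was -0.11 (SE 0.12, 95% CI -0.39 to 0.17, limma adjusted p = 0.689). Within slide 1, where control rats could be set against an MASM + TBI rat, Nfe2l2 was 12.16 in that rat, above its 3 controls. With slide as a fixed block the difference from control was 0.86, which again sets MASM + TBI rat 3 alone against the controls. With the methods' t-test, after an adjustment added here, the adjusted p was 0.228 for TBI and 0.073 for MASM + TBI.

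Gclm, the modifier subunit that raises the activity of glutamate-cysteine ligase, was the gene that separated the TBI rats from both other groups. Its log2 signal was 4.76, 4.52 and 4.39 in control rats 1 to 3 and 2.35, 1.71 and 2.91 in TBI rats 1 to 3. In MASM + TBI rats 1 to 4 it was 4.98, 4.83, 4.42 and 5.24. The 3 TBI rats lay below all other rats without overlap, and the MASM + TBI rats overlapped with the control rats. Gclm fell by 2.23 on the log2 scale after TBI, or 4.70-fold (SE 0.31, 95% CI -2.93 to -1.53, limma adjusted p = 0.0070). On the same scale it was higher by 2.54, or 5.83-fold, in MASM + TBI than in TBI rats (SE 0.29, 95% CI 1.88 to 3.20, limma adjusted p = 0.0068). These fits use TBI values below the weakest signal that counted as well above background on the arrays of rats 1 and 2. With such values raised to that floor, the TBI mean of Gclm was 2.99-fold lower than the control mean. It was 3.72-fold lower than the MASM + TBI mean. These folds were computed after the values were seen and are not confidence limits, and the limma intervals above reach below them. Between MASM + TBI and control the difference was 0.31 (SE 0.29, 95% CI -0.35 to 0.97, limma adjusted p = 0.682), an interval that does not exclude a rise of nearly 1 on the log2 scale. The calls for TBI against control and for MASM + TBI against TBI held in 10 of 10 fits that left out 1 rat.

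The Gclm probe was dim on every array, and its values before normalization are therefore given too. The background-subtracted signal, on the linear scale, was 21.5, 24.3 and 19.9 in control rats, 4.93, 2.63 and 13.5 in TBI rats, and 31.5, 26.2, 18.0 and 34.3 in MASM + TBI rats. The order of the groups was the same before normalization, with the highest TBI rat (rat 3) below the lowest of the other rats (MASM + TBI rat 3). The median pixel intensity of the spot, with its background included, was 74, 83 and 77 in control rats, 47, 49 and 62 in TBI rats, and 92, 86, 63.5 and 90 in MASM + TBI rats. The local background around the spot lay between 34 and 41 on all arrays, so the spots of TBI rat 3 and MASM + TBI rat 3 were nearly equally bright. Their arrays as a whole were not: the median intensity of all spots was 51.9 for TBI rat 3 and 25.9 for MASM + TBI rat 3. The spot was well above background in 3 of 3 control rats, in 4 of 4 MASM + TBI rats and only in rat 3 of the TBI rats. Because 1 TBI array measured it, the fold changes above rest on values of which the other 2 in the TBI group are near background.

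**Figure D2:**
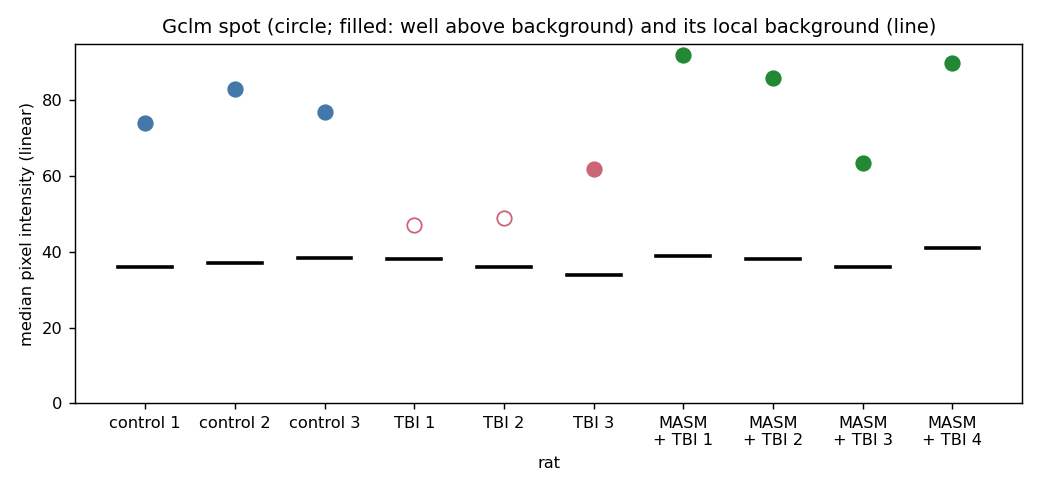
Median pixel intensity (linear scale) of the Gclm spot on each array, 1 circle per rat, with the local background around the spot as a black line. Filled circles are well above background. The spots of TBI rats 1 and 2 (47 and 49) lie closest to their background, and those of TBI rat 3 (62) and MASM + TBI rat 3 (63.5) are at nearly the same height. Intensities are not normalized between arrays.

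How often other dim probes behaved like Gclm was counted over the probes whose control mean lay within 0.5 of it on the log2 scale, a band chosen after the values were seen. Of these 3730 probes, 155 (4.16%) were called lower in TBI than in control rats, against 2.49% of all probes. In the same band 49 (1.31%) were called higher in MASM + TBI than in TBI rats, and 27 (0.724%) were called in both comparisons. Over all probes 0.261% were called in both. Normexp background correction with an offset of 50, which shrinks differences between dim spots, gave -0.28 for TBI against control (adjusted p = 0.034) and 0.34 for MASM + TBI against TBI (adjusted p = 0.033), below the 1.5-fold limit. After the added adjustment the methods' t-test gave adjusted p = 0.260 and 0.338.

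The 5 genes whose pattern over the 10 arrays was most like that of Gclm, among 9578 genes with a probe well above background on all arrays of a group, were Ka11 (a keratin gene, Pearson's r = 0.962), Rab7a (a small GTPase of late endosomes, r = 0.956), Glyr1 (r = 0.945) and the olfactory receptor genes Or13a27e (r = 0.941) and Or51a10 (r = 0.938). These arrays share the 3 groups and slides, and the correlations are given as a description. The genes were picked for likeness to Gclm, which is low in TBI rats, so their lower TBI values follow from the choice. None of the 5 belongs to the glutathione or NRF2 lists used here. Ka11 and Or51a10 were well above background on 0 of 3 TBI arrays and met the filter through the other groups alone. Only a bound on the means can be given for them, without a confidence limit. The TBI mean was at least 3.87-fold lower than control for Ka11 and at least 4.91-fold lower for Or51a10. Each bound sets the control mean against the weakest signal that still counted as well above background on each TBI array. The log2 difference between TBI and control was -0.36 for Rab7a, -0.40 for Glyr1 and -0.34 for Or13a27e, which were well above background on all 10 arrays.

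Gclc, the catalytic subunit of the same ligase, did not follow Gclm. In control rats 1 to 3 the Gclc log2 signal was 6.87, 6.72 and 6.56. It was 6.88, 6.52 and 7.68 in TBI rats 1 to 3 and 7.85, 7.34, 7.68 and 7.72 in MASM + TBI rats 1 to 4. All 4 MASM + TBI rats lay above the 3 control rats, and TBI rat 3 alone among the TBI rats reached the MASM + TBI values. For TBI against control the difference was 0.31 (SE 0.27, 95% CI -0.31 to 0.93, limma adjusted p = 0.529). For MASM + TBI it was 0.93 against control (95% CI 0.35 to 1.51, limma adjusted p = 0.0998) and 0.62 against TBI (95% CI 0.04 to 1.20, limma adjusted p = 0.265), so neither passed the threshold. Against control it was called with slide as a random block (0.92, adjusted p = 0.042, estimated slide correlation -0.13) and with only the groups compared in the fit (adjusted p = 0.029). With 75th percentile scaling, normexp, the methods' t-test after the added adjustment or the replicate block it was not called. The Gclc spot of TBI rat 3 was 347 in median pixel intensity against 143 and 137 in the other TBI rats, but its whole array was brighter. Before normalization the median intensity of all spots was 51.9 on that array, against 27.0 and 32.8 for TBI rats 1 and 2. Without TBI rat 3, Gclc was called in both comparisons, with a limma adjusted p of 0.024 against control and, at 0.95, of 0.033 against TBI. The TBI estimate against control was then -0.02. Over the 10 arrays Pearson's r between Gclm and Gclc was 0.42, as a description.

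The remaining gene of glutathione supply, Slc7a11, encodes the cystine transporter subunit xCT. Its log2 signal was 1.44 to 1.80 in all 10 rats, and its spot was well above background on 0 of 10 arrays. No fold change is given for it.

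**Figure D3:**
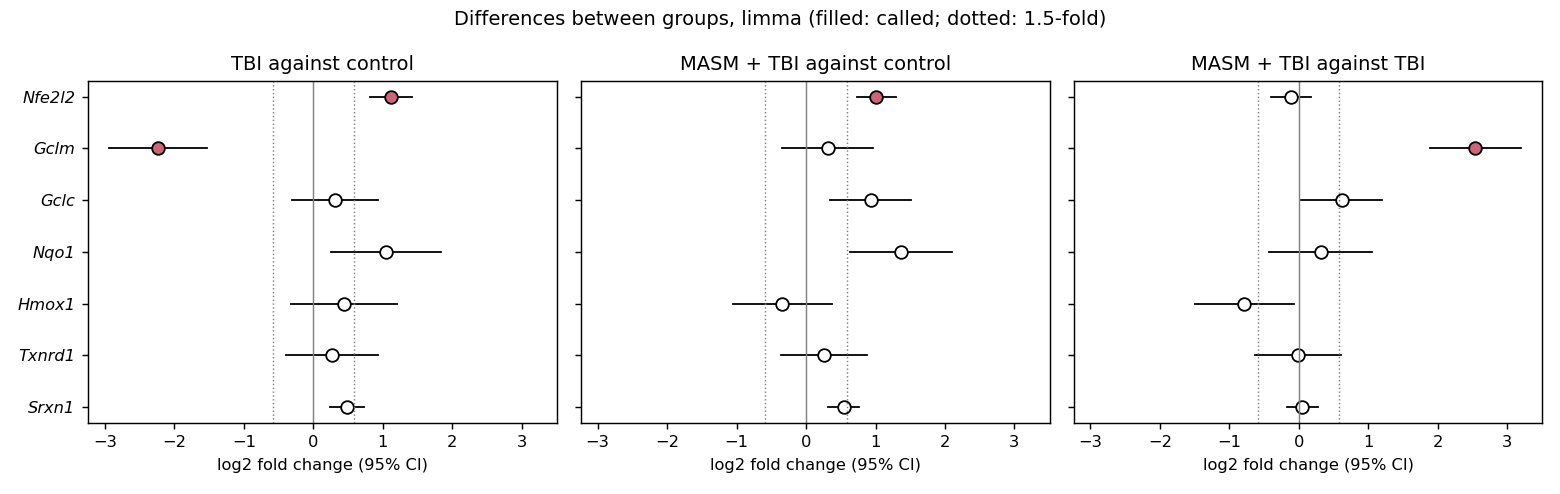
Log2 fold change with its 95% CI from limma for 7 genes in the 3 comparisons (x axis; dotted lines mark a 1.5-fold change; filled points were called). Nfe2l2 and Gclm stand out to opposite sides for TBI against control (1.13 and -2.23), and Gclm alone is called for MASM + TBI against TBI (2.54).

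Nqo1, which encodes the quinone reductase NQO1, had higher values in both irradiated groups that did not pass the adjusted test. The Nqo1 log2 signal was 7.57, 7.98 and 6.73 in control rats 1 to 3 and 8.64, 8.77 and 8.02 in TBI rats 1 to 3. In MASM + TBI rats 1 to 4 it was 8.59, 9.29, 8.70 and 8.60. No irradiated rat fell within the range of the control rats, although TBI rat 3 (8.02) was close to control rat 2 (7.98). The difference from control was 1.05 for TBI (SE 0.35, 95% CI 0.26 to 1.84, limma adjusted p = 0.116) and 1.37 for MASM + TBI (SE 0.32, 95% CI 0.63 to 2.10, limma adjusted p = 0.0658). Between the irradiated groups it was 0.32 (SE 0.32, 95% CI -0.42 to 1.06, limma adjusted p = 0.660). When only probes well above background on all arrays of a group were tested, Nqo1 was called in MASM + TBI against control (adjusted p = 0.035). With slide as a random block it was called in both comparisons with control (1.06, adjusted p = 0.034 for TBI and 1.39, adjusted p = 0.023 for MASM + TBI).

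Srxn1, sulfiredoxin, which restores overoxidised peroxiredoxins, showed a small and even difference. Its log2 signal was 6.08, 6.09 and 6.14 in control rats 1 to 3. It was 6.71, 6.37 and 6.69 in TBI rats 1 to 3 and 6.64, 6.77, 6.55 and 6.62 in MASM + TBI rats 1 to 4. All 7 irradiated rats lay above the control rats, whose mean was 6.10 ± 0.03 (SD, n = 3). The difference from control was 0.49 for TBI (SE 0.11, 95% CI 0.24 to 0.73, limma adjusted p = 0.0374) and 0.54 for MASM + TBI (SE 0.10, 95% CI 0.31 to 0.77, limma adjusted p = 0.0296). Both passed the adjusted p and, at 1.40-fold and 1.45-fold, missed the 1.5-fold limit, so Srxn1 is not among the genes called. Between the irradiated groups the difference was 0.05 (SE 0.10, 95% CI -0.18 to 0.28, limma adjusted p = 0.835). Over the 10 arrays Pearson's r was 0.94 between Srxn1 and Nfe2l2 and 0.73 between Nqo1 and Nfe2l2, values to which the shared groups contribute and which are a description.

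Txnrd1, cytosolic thioredoxin reductase, had 3 probes. On the brightest, its log2 signal was 9.96, 9.73 and 9.63 in control rats, 10.58, 10.22 and 9.32 in TBI rats, and 9.83, 10.28, 9.91 and 10.12 in MASM + TBI rats. TBI rat 3 had the lowest value of all rats and TBI rat 1 the highest, so the groups overlapped. The difference was 0.26 for TBI against control (95% CI -0.40 to 0.93, limma adjusted p = 0.617), 0.26 for MASM + TBI against control (95% CI -0.36 to 0.88, limma adjusted p = 0.723) and -0.00 between the irradiated groups (95% CI -0.62 to 0.61, limma adjusted p = 0.997). On the other 2 probes TBI rat 3 lay above all control rats, whereas on the brightest it lay below them. On A_44_P554454 it was still the lowest of the irradiated rats. The probe A_44_P554454 gave 9.13, 9.08 and 8.90 in control rats, 9.74, 9.39 and 9.30 in TBI rats and 9.37, 9.60, 9.36 and 9.37 in MASM + TBI rats, without overlap between control and irradiated rats. Its difference from control was 0.44 for TBI (SE 0.13, limma adjusted p = 0.0964) and 0.39 for MASM + TBI (SE 0.12, limma adjusted p = 0.150). On A_44_P134070 TBI rat 3 had the highest value, 8.84, and the differences from control were 0.26 (limma adjusted p = 0.459) and 0.34 (limma adjusted p = 0.412).

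Hmox1, heme oxygenase 1, which degrades heme and is a target of both NRF2 and BACH1, was not called in any comparison. The control rats 1 to 3 had a log2 Hmox1 signal of 9.17, 9.98 and 9.71. It was 9.37, 10.60 and 10.23 in TBI rats 1 to 3 and 9.35, 9.59, 9.27 and 8.91 in MASM + TBI rats 1 to 4. TBI rats 2 and 3 had the highest values of all rats, while TBI rat 1 lay among the other groups. The difference was 0.45 for TBI against control (95% CI -0.32 to 1.21, limma adjusted p = 0.460), -0.34 for MASM + TBI against control (95% CI -1.05 to 0.37, limma adjusted p = 0.679) and -0.78 for MASM + TBI against TBI (95% CI -1.50 to -0.07, limma adjusted p = 0.250). The summed log2 signal of 5 of 6 Kupffer cell markers, genes of the resident macrophages of the liver, which express Hmox1, is given beside these values. It was 15.51, 16.02 and 15.74 in control rats, 15.50, 16.38 and 15.93 in TBI rats and 15.47, 15.48, 15.27 and 15.17 in MASM + TBI rats. Clec4f made up 77.3% to 84.3% of this sum. Over TBI rats 1 to 3, Clec4f (15.16, 16.04 and 15.56), Marco (10.46, 11.75 and 10.96) and Cd68 (12.83, 13.75 and 13.46) had the order of Hmox1, whereas Cd163 (8.12, 8.22 and 7.65) and Vsig4 (9.46, 9.50 and 9.56) did not. Estimates for MASM + TBI against TBI were negative for all 5 markers, as for Hmox1, and for 17661 of all 40945 probes. The limma p, before adjustment, was below 0.05 for 3 of these markers, beside 17.0% of all probes. Of the 5 markers, 0 were called. All 5 markers exceeded background clearly in each of the 10 rats, and their part in the Hmox1 values was not tested.

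Of 52 other genes of the pathway, 50 had a probe, and 2 of them passed the test in any comparison. For TBI against control 0 were higher and 2 lower (2.01% and 2.49% of all probes), for MASM + TBI against control 0 were higher and 1 lower (0.926% and 1.43%), and for MASM + TBI against TBI 0 were called, where limma gave 8 genes at an unadjusted p under 0.05 and the methods' t-test called 0 after the added adjustment. With an unadjusted p under 0.05 and the 1.5-fold limit, the methods' t-test gave 4, 4 and 1 of the 50 genes in these comparisons, beside 7.08%, 5.75% and 4.03% of all probes. At an unadjusted p under 0.05 in limma the comparisons with control gave 17 and 21 genes, so the shares were 34% for TBI and 42% for MASM + TBI against control and 16% between the irradiated groups, beside 23.5%, 17.0% and 17.0% of all probes. These shares are not of like probes. Of the 50 genes 49 were well above background on all arrays of a group, and 25274 of all 40945 probes were. Their median log2 fold changes were -0.07, 0.01 and 0.03 in the 3 comparisons. By group, 0 of 7 NRF2 regulators, 0 of 13 genes of glutathione supply and turnover, 0 of 6 of the thioredoxin system, 0 of 5 of NADPH supply, 0 of 5 of heme and iron and 0 of 2 other targets were called in any comparison, and both called genes were among the 12 of NRF2-linked detoxification.

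Abcc2, the transporter that exports conjugates into bile, fell in both irradiated groups. Its log2 signal was 14.39, 14.19 and 14.30 in control rats, 13.39, 13.29 and 13.40 in TBI rats and 13.39, 13.68, 13.69 and 13.49 in MASM + TBI rats, without overlap with control. The difference from control was -0.93 for TBI (SE 0.10, limma adjusted p = 0.0031) and -0.73 for MASM + TBI (SE 0.10, limma adjusted p = 0.0083). The call for MASM + TBI was lost with slide as a fixed block (-0.60, adjusted p = 0.129), 75th percentile scaling (adjusted p = 0.071), the replicate block (adjusted p = 0.086) and the methods' t-test (adjusted p = 0.095), which also lost the call for TBI (adjusted p = 0.168). Akr7a3, an aldo-keto reductase that acts on aflatoxin dialdehyde, had a log2 signal of 14.55, 14.62 and 14.68 in control rats, 14.01, 12.72 and 12.75 in TBI rats and 13.33, 14.07, 13.58 and 13.78 in MASM + TBI rats. It fell by 1.46 after TBI (SE 0.34, limma adjusted p = 0.045), a call that was kept in only 1 of 10 fits with 1 rat left out (without TBI rat 1, adjusted p = 0.0047) and lost in the others, with adjusted p values between 0.057 and 0.128.

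The regulators of NRF2 that were named whatever their values did not pass the test. Keap1 had a mean log2 signal of 9.24 in control, 8.99 in TBI and 9.07 in MASM + TBI rats, with differences from control of -0.25 (limma adjusted p = 0.222) and -0.17 (limma adjusted p = 0.498). Bach1 had means of 7.60, 7.85 and 7.87, with differences from control of 0.25 (limma adjusted p = 0.536) and 0.27 (limma adjusted p = 0.593). Chac1, which degrades glutathione, had the largest estimate of the 50 genes without passing the test, and it was singled out after its values were seen. Chac1 had a log2 signal of 6.03, 8.68 and 6.82 in control rats, 10.51, 11.13 and 11.89 in TBI rats and 11.34, 11.00, 11.70 and 6.27 in MASM + TBI rats. All TBI rats lay above the control rats, and so did MASM + TBI rats 1 to 3, whereas MASM + TBI rat 4 lay within the control range. The group means were 7.18 ± 1.36 (SD, n = 3), 11.18 ± 0.69 (SD, n = 3) and 10.08 ± 2.56 (SD, n = 4). The 95% CI of the difference from control was 0.83 to 7.17 for TBI (limma adjusted p = 0.131) and -0.07 to 5.87 for MASM + TBI (limma adjusted p = 0.306). Without MASM + TBI rat 4 Chac1 was called in both comparisons with control (adjusted p = 0.022 for TBI, and 4.17 with adjusted p = 0.033 for MASM + TBI), and the difference between the irradiated groups went from -1.10 to 0.17. With the replicate block it was called for TBI against control (adjusted p = 0.046).

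**Figure D4:**
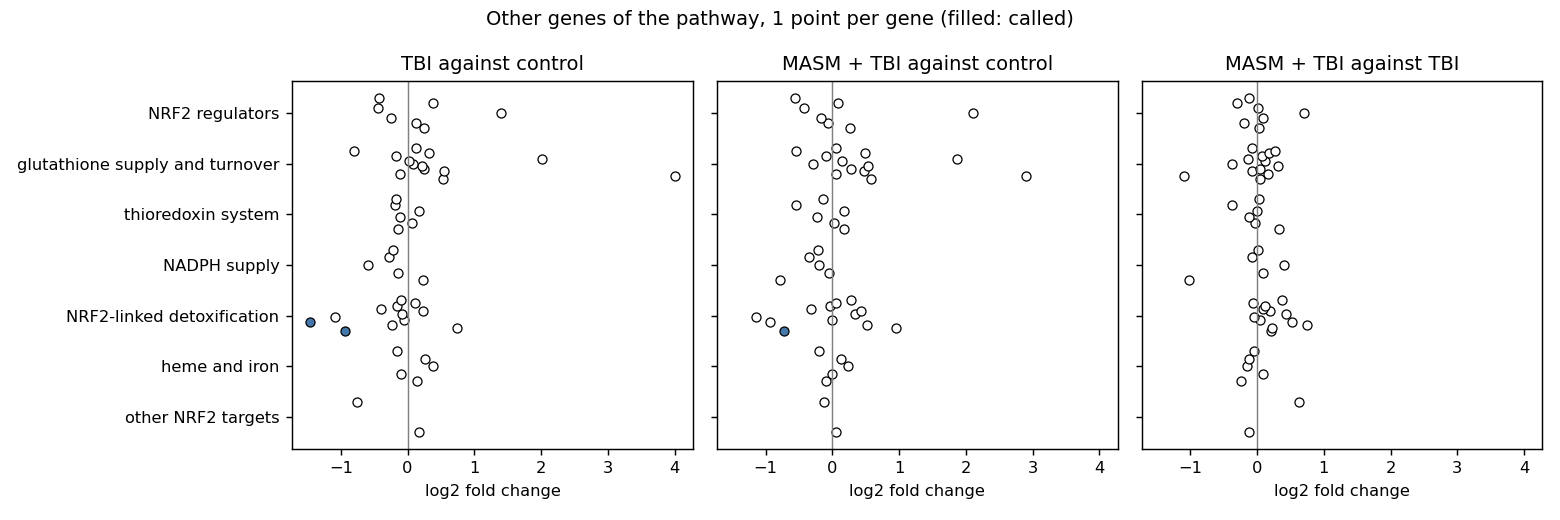
Log2 fold change (x axis) of the other genes of the pathway, 1 point per gene, by group of genes (y axis) in the 3 comparisons; filled points were called. The called points are Akr7a3 (-1.46) and Abcc2 (-0.93) for TBI against control and Abcc2 (-0.73) for MASM + TBI against control, and the open point farthest to the right in both comparisons with control is Chac1.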

How the data were processed

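Liver RNA of 10 rats in 3 groups was measured on 1-colour arrays. The authors deposited, per spot, the intensity that Agilent Feature Extraction 10.7.3.1 computed (linear scale, background subtracted, not normalized between arrays), and the deposited value table held the same values. Groups came from the labels and slides from the file headers. Whether the rats of a group were handled separately beyond having 1 array each is not given in the sources used here, and p-values measure the spread between these arrays.

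Control spots (1639 of 45018) and 76 to 112 outlier spots per array were left out, and 0 spots were saturated. Log2 intensities were quantile normalized and spots of a probe averaged, which left 40945 of 41012 probes. Accessions named 16950 probes. A gene with several probes is represented by the brightest. Groups were compared with limma 3.58.1 (R 4.3.3), with a mean per group fitted to all arrays and Benjamini-Hochberg adjustment over all probes, and the fit was tested on simulated data. Plots were made with Python 3.11.15, pandas 2.3.3 and matplotlib 3.10.9.

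The genes and lists were chosen with earlier results of these data known. Named are the 9 genes, other pathway genes called in at least 1 comparison, Keap1, Bach1, Cdkn1a and the 5 genes most like Gclm. Chac1 was added after its values were seen. The alternatives (21 in all) were 75th percentile scaling, the value table as deposited, normexp (offset 50, median pixel values), a filter on dim probes, the mean of all probes of a gene, a fit of only 2 groups, a prior with trend and robust estimation, the methods' t-test, a replicate block, slide as random or fixed block, and each rat left out in turn.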

Additional observations from a re-analysis of the deposited data

Results flagged for a closer look

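Nqo1 in MASM + TBI rat 2 (log2 signal 9.29) stood apart from the other 3 MASM + TBI rats (8.59, 8.60 and 8.70). The gap to the nearest of them was 0.845 of the range of the group, above Dixon's 95% critical value for 4 samples. Chance marks about 1 in 20 such groups, and groups of 3 rats were not examined.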

How the results depend on the processing

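With slide as fixed block only MASM + TBI rat 3 is set against the control rats, so calls in that fit are not counted here. The calls of Nfe2l2 and Gclm kept their direction in every alternative run and, that fit aside, lost the call where named here. Of the 8 genes, the count called for TBI against control (2) was 1 with normexp, 0 with the methods' t-test and 2 to 3 with 1 rat left out (3, with Srxn1, without TBI rat 2), and 3, with Nqo1, with slide as random block. For MASM + TBI against control (1) it was 2 with the dim-probe filter (with Nqo1, 7 genes measured), 2 with only the groups compared (with Gclc), 3 with slide as random block (with both), 0 with the methods' t-test, and 1 to 2 with 1 rat left out (2 without TBI rat 3). For MASM + TBI against TBI (1) it was 0 with normexp, the methods' t-test and the replicate block, and 1 to 2 with 1 rat left out (2 without TBI rat 3). Among the 50 other genes the count for TBI against control (2) was 4 with 75th percentile scaling, 4 with the dim-probe filter (49 genes measured), 3 with normexp, 2 with the replicate block (Abcc2 and Chac1, without Akr7a3), 1 with only the groups compared, 0 with the methods' t-test, 7 with slide as random block, and 1 to 4 with 1 rat left out (4 without TBI rat 1). For MASM + TBI against control (1) it was 0 with 75th percentile scaling, the methods' t-test and the replicate block, 2 with slide as random block, and 1 to 4 with 1 rat left out (4 without TBI rat 1, 2 without each of MASM + TBI rats 1, 3 and 4). For MASM + TBI against TBI (0) it was 1 with 75th percentile scaling, 3 with slide as random block, and 0 to 3 with 1 rat left out (3 without TBI rat 1, 1 without MASM + TBI rat 4). Each count of 1 for TBI against control with a rat left out came without control rat 1, 2 or 3, TBI rat 2 or MASM + TBI rat 1, 2 or 3.

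The sign turned only in uncalled estimates: Gclc for TBI against control (-0.018 to 0.57 with 1 rat left out), Gclm for MASM + TBI against control (-0.14 with slide as fixed block), Srxn1 for MASM + TBI against TBI (-0.058 to 0.11 with 1 rat left out), and Txnrd1 for MASM + TBI against TBI (0.018 with 75th percentile scaling, 0.0081 with the mean of its probes, 0.0042 with slide as random block, -0.36 to 0.26 with 1 rat left out) and for TBI against control (-0.0046 to 0.62 with 1 rat left out). Of the estimates of the 7 genes under all alternatives, slide as fixed block included, 400 kept direction and side of the threshold, 8 lost a call, 8 gained one and 11 changed sign. Slc7a11, which has no fold change, is not counted. The cause of these changes was not tested.

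Over all probes, the counts called in the 3 comparisons were 1842, 963 and 570. They were 553, 455 and 79 with normexp, 943, 978 and 255 with only the groups compared, and 1026, 298 and 22 with the replicate block. Slide as random block gave 4078, 1805 and 1401 (estimated correlation -0.13). Scaling to the 75th percentile gave 6950, 791 and 5137, and the dim-probe filter 1930, 1222 and 510 of 25274 probes. The methods' t-test gave 10, 28 and 3 after the adjustment added here. At an unadjusted p under 0.05 with the 1.5-fold limit, the methods' t-test gave 2900, 2354 and 1649. Slide as fixed block could be fitted only for MASM + TBI against control, with MASM + TBI rat 3 alone against the control rats, and no count is given for it. With 1 rat left out the ranges were 914 to 2312, 461 to 1044 and 240 to 1084. Same-numbered rats did not deviate together (correlations of -0.13 to 0.17), so the replicate block pairs rats that share only a number. With it Gclm was 2.42 for MASM + TBI against TBI (adjusted p = 0.087), and Nfe2l2 and Gclm kept their calls against control. The dim Gclm and Slc7a11 spots are limited by signal over background.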
